A study of Mus musculus with 3 samples.

Results

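The 8 genes described here make, break, sense or depend on active vitamin D in the kidney. They are Cyp24a1, Cyp27b1, Vdr, Rxra, Kl, Fgfr1, Pth1r and Casr, out of 27998 genes counted. The group was chosen by the level of Cyp24a1 in proximal tubular epithelial cells (PTECs), already seen to be higher in both Aoah-/- libraries, and the other 7 genes were taken as its partners in textbook physiology. The values of Cyp24a1 in PTEC-like cells are therefore a description and support nothing further. The questions are which cells carry Cyp24a1 and whether its partners differ along with it.

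Droplet single-cell RNA sequencing was applied to digested kidneys of mice aged 6 to 8 weeks, with 1 library per mouse. The Aoah-/- genotype had 2 libraries, numbered 2 and 3, and WT had 1, numbered 3. Every mouse had received folic acid (FA), a crystal-forming agent that injures tubules and leads to fibrosis, and kidneys were taken on day 14, so the WT group is an injured control and no untreated kidney is compared. Aoah encodes acyloxyacyl hydrolase, a lipase that removes fatty acyl chains from bacterial lipopolysaccharide. Because the WT group is 1 mouse, no test between groups was made, and levels below are given per library. The 95% intervals printed beside many of them, but not all, cover counting error only, not the spread between mice.

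Calcitriol, the active form of vitamin D, is made from 25-hydroxyvitamin D by the 1-alpha-hydroxylase CYP27B1 and broken down by the 24-hydroxylase CYP24A1, both mitochondrial enzymes of the proximal tubule. It acts through the vitamin D receptor (VDR), a nuclear receptor that binds DNA together with a retinoid X receptor such as RXRA, and Cyp24a1 is among its classic target genes. Parathyroid hormone, acting through PTH1R, favours synthesis, whereas FGF23, acting through FGF receptors with klotho (Kl) as its coreceptor, favours breakdown, and the calcium-sensing receptor (Casr) reads extracellular calcium.

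In the GRCm38 (mm10) build, the 8 protein-coding genes lie on 7 chromosomes. Cyp24a1 is at chr2:170482708-170497145 on the minus strand and Cyp27b1 at chr10:127048250-127053006 on the plus strand. Vdr is at chr15:97854425-97910630 (minus), Rxra at chr2:27676440-27762957 (plus) and Kl at chr5:150952607-150993817 (plus). Fgfr1 is at chr8:25513654-25575718 (plus), Pth1r at chr9:110722085-110747145 (minus) and Casr at chr16:36493696-36562141 (minus).

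Promoters of 6 of the 8 genes were matched in RefSeq (GRCm38.p6), and those of Cyp24a1 and Fgfr1 were not. The 250 bases before the start sites of the synthesising enzyme, the receptor and klotho are shown, since the results turn on whether these partners move with Cyp24a1. Capitals mark matches, on either strand, to 6 motifs. AGGTCA is a half-site that nuclear receptors such as VDR bind, and 14.0% of 32544 distinct windows of this length hold it. GGTTCA is a variant of it held by 8.81% of windows, and AGTTCA is another held by 11.8%. The CCAAT box is in 33.8% of windows, the TATA box written as TATATA in 5.01% and the GC box GGGCGG in 33.0%. The windows are chr10:127047996-127048245 (plus strand) for Cyp27b1, chr15:97908297-97908546 (minus strand) for Vdr and chr5:150952357-150952606 (plus strand) for Kl.
Cyp27b1: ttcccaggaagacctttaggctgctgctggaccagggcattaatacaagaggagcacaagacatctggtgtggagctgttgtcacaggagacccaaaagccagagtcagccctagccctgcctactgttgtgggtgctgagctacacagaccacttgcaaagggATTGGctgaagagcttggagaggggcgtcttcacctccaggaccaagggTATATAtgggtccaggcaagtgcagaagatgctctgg
Vdr: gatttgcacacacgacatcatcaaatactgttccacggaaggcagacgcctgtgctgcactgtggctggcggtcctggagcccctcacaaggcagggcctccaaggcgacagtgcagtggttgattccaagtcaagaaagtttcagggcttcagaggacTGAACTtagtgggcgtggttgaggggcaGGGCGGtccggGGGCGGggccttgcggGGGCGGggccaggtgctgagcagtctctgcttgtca
Kl: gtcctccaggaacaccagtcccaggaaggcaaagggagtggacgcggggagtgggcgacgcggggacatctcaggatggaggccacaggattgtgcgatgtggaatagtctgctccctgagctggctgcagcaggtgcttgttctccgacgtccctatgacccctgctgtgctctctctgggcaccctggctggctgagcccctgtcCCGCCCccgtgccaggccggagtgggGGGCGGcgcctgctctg
The Cyp27b1 window holds a CCAAT box on the opposite strand at position -86 and TATATA at position -37, counted back from the start site. The Vdr window holds 3 GC boxes and 1 AGTTCA half-site on the opposite strand at position -91, and the Kl window holds 2 GC boxes. These matches are descriptions of letters and not binding sites.

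The 3 libraries held 25516, 24693 and 23072 barcodes (Aoah-/- replicate 2, Aoah-/- replicate 3, WT replicate 3, the order used throughout) and 158551992 to 167222984 UMIs, of which 21368, 19692 and 18202 cells were kept. Each pair of libraries shared 171 to 176 barcodes. Aoah itself was at 6.06, 5.68 and 15.3 UMIs per 1000000 (CPM), lower in both Aoah-/- libraries but not absent, and the position of the deletion is not given in the sources used here. PTEC-like cells numbered 8247, 5044 and 9471, and the summed level of their 11 markers was 49893, 58676 and 59841 CPM, against 5346 to 11325 CPM in other kept cells. The 8 immune markers fixed as a check summed to 118 CPM, 95.7 CPM and 48.4 CPM in PTEC-like cells, so immune RNA was also higher there in the Aoah-/- libraries. Its part in the results was not tested beyond the removal of cells given beside Cyp24a1.

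Cyp24a1, the enzyme that inactivates calcitriol, was at 95.5 CPM (95% interval 93.0 to 98.1) and 68.4 CPM (66.2 to 70.7) in PTEC-like cells of the Aoah-/- libraries and at 19.2 CPM (18.2 to 20.2) in those of the WT library. Both Aoah-/- libraries lay above the WT library, by 4.99-fold and 3.57-fold. The log2 ratio of their mean to the WT level was 2.10 (SD between the Aoah-/- libraries 0.34), and 34 of 11456 genes with at least 1 CPM had a larger one. A member is counted as higher or lower below when both Aoah-/- libraries differ from the WT library by at least 1.5-fold in that direction. By that rule 7.51% of the genes tested in PTEC-like cells were higher and 1.31% lower.

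Removal of PTEC-like cells with any immune marker UMI left 84.6 CPM, 71.1 CPM and 20.7 CPM, a log2 ratio of 1.91. A second measurement bears on how the PTEC-like cells were mixed. Subcluster 0 held 31.6% and 24.8% of PTEC-like cells in the Aoah-/- libraries but 10.3% in the WT library, and it is among the subclusters rich in Cyp24a1. Other subclusters shifted too. Subcluster 2, with a median of 913 UMIs, held 21.0%, 5.11% and 27.8% and had Cyp24a1 at 32.5 CPM, 15.7 CPM and 3.65 CPM. When each library was weighted to the WT library's mix of subclusters, Cyp24a1 was at 67.1 CPM, 61.8 CPM and 19.2 CPM, with a log2 ratio of 1.75.

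Cells of the early proximal tubule carried most of the transcript. Subclusters with the markers of segments S1/S2 (the convoluted part, led by the glucose transporter Slc5a2 and the lactate transporter Slc5a12) held 71.5%, 57.9% and 61.9% of all Cyp24a1 UMIs of the kept cells. Their level was 164 CPM (160 to 169), 117 CPM (112 to 121) and 46.3 CPM (43.5 to 49.3), a log2 ratio of 1.60 (SD 0.35). In cells like segment S3, the straight part marked by Slc7a13, the level was 26.3 CPM (23.7 to 29.1), 32.0 CPM (29.2 to 35.0) and 11.2 CPM (10.0 to 12.4). The S1/S2-like level thus lay above the S3-like level within each of the 3 libraries. In both segments the Aoah-/- intervals lay above the WT interval, and by the 1.5-fold rule 4.02% of genes in S1/S2-like cells were higher and 2.35% lower. In S3-like cells 4.26% were higher and 1.92% lower. Cyp24a1 was also found in B lymphocyte-like cells (19.8 CPM, 10.2 CPM and 0 CPM) and T lymphocyte-like cells (9.09 CPM, 4.67 CPM and 1.72 CPM). The unnamed cluster 17, led by T cell genes, had 64.1 CPM, 44.7 CPM and 0.917 CPM. The part of RNA carried over from other cells in the S3-like values was not tested.

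The injured PTEC-like cells, marked by Vcam1 and other injury genes and numbering 215, 352 and 156, had 40.2 CPM (33.0 to 48.6), 56.1 CPM (49.0 to 63.9) and 9.92 CPM (6.14 to 15.2) of Cyp24a1. That level lay below the S1/S2-like level of the same library in all 3 libraries. Their log2 ratio was 2.28 (SD 0.34), where 9.27% of genes were higher and 5.78% lower. Immune markers summed to 180 CPM, 201 CPM and 37.3 CPM in the injured cells, a wider gap between the groups than over all PTEC-like cells, and their part in this ratio was not tested. With finer subclusters (resolution 1) the log2 ratio was 2.69 in S3-like and 2.77 in injured cells, and it was 3.22 in injured cells with at least 500 genes, so its size depends on how these cells are drawn.

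Among the S1/S2-like cells, the 2 subclusters did not behave the same way. Subcluster 0, led by Spp2, Slc5a2 and Apob, had 161 CPM (155 to 167), 76.9 CPM (72.4 to 81.6) and 21.9 CPM (18.8 to 25.3). The Aoah-/- libraries differed from each other there more than counting error allows. Subcluster 4, led by Slc5a12 and by the early-response genes Dusp1, Fosb and Klf4, which handling of tissue can also induce, had 172 CPM (163 to 180), 191 CPM (182 to 202) and 62.8 CPM (58.5 to 67.3). Subcluster 4 stood above subcluster 0 without overlap of intervals in the WT library and in Aoah-/- replicate 3, while their intervals overlapped in Aoah-/- replicate 2.

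**Figure D1:**
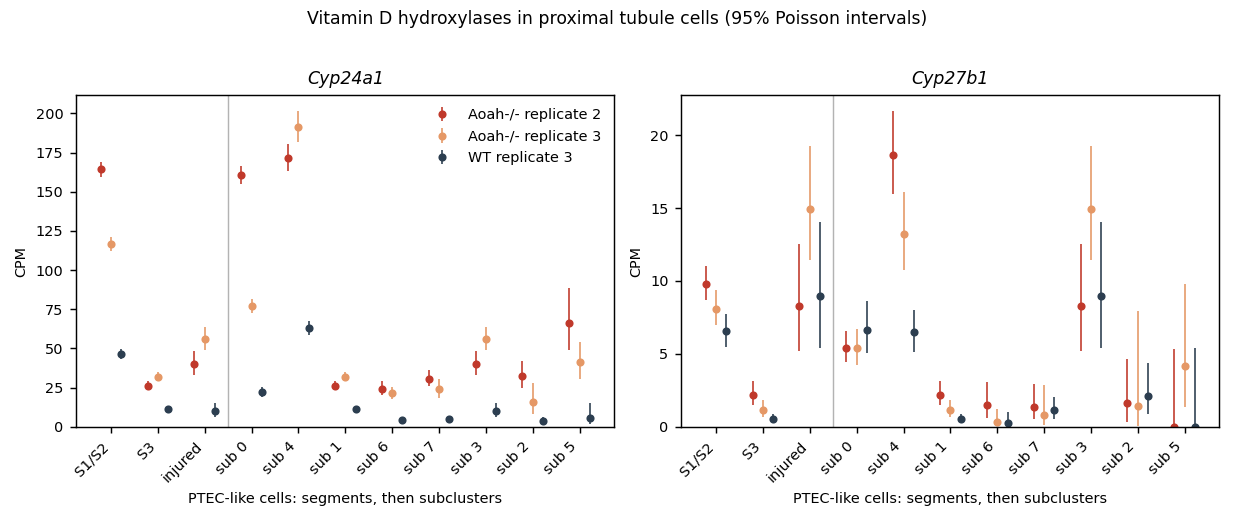
Cyp24a1 (left) and Cyp27b1 (right) in PTEC-like cells, in UMIs per 1000000 (CPM, linear axis), for the named segments and then single subclusters (sub), 1 point per library with its 95% Poisson interval. Cyp24a1 is above the WT library in both Aoah-/- libraries in each group drawn, whereas Cyp27b1 in subcluster 0 is at 5.43, 5.38 and 6.66 CPM with overlapping intervals. Subcluster 2 (median 913 UMIs) is led by haemoglobin genes, and subcluster 5 by the immune genes Jchain, Ccl5 and Cd52. Their immune markers sum to 220 CPM and 616 CPM, so neither is a clean proximal tubule group.

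The transcript was concentrated in few cells. After each cell was thinned to 1000 UMIs, a Cyp24a1 UMI was found in 444 of 6326 PTEC-like cells of Aoah-/- replicate 2 (7.02%, exact 95% interval 6.40 to 7.68), 278 of 5044 of Aoah-/- replicate 3 (5.51%, 4.90 to 6.18) and 117 of 7669 of the WT library (1.53%, 1.26 to 1.83). Cells below that depth were left out, 1921, 0 and 1802 of them. Without thinning the shares were 19.1%, 18.6% and 5.32%. In S1/S2-like cells the thinned shares were 12.6%, 9.31% and 3.85%.

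B and T lymphocyte-like cells should lack the gene and show free RNA, though only in clusters that the naming rule kept. Clusters of another class with a high PTEC marker score beside their own were left unnamed. Cluster 17, led by T cell genes, was left out in this way, with Cyp24a1 at 64.1 CPM, 44.7 CPM and 0.917 CPM. The shares below can therefore understate the RNA carried over. The thinned share was 1.03%, 0.928% and 0% of B lymphocyte-like cells, the last being 0 of 665 cells, which allows a share of up to 0.451% by the limit of 3 counts and 0.553% by the exact 95% interval. In T lymphocyte-like cells it was 0.484%, 0.334% and 0.190%. Median depth before thinning was 5496.5 to 6992 UMIs in the PTEC-like cells used and 2287 to 2976 UMIs in the lymphocyte-like cells used. Shares in PTEC-like cells were thus above those of lymphocyte-like cells in each library.

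Cells with 5 or more Cyp24a1 UMIs numbered 371 of 8247, 255 of 5044 and 85 of 9471 PTEC-like cells. The highest single cell held 32, 42 and 31 UMIs, so strongly positive cells also existed in the WT library. Subclusters 0 and 4 together supplied most of these cells. Subcluster 4 alone supplied 32.9%, 45.5% and 65.9% of them, and subcluster 0 supplied 56.1%, 28.2% and 9.41%. These counts were not thinned, so they depend on depth. Median depth was 3166, 6552 and 4934 UMIs in PTEC-like cells. It was 2037, 5366 and 3752 UMIs in subcluster 0 and 8918, 8759 and 8695.5 UMIs in subcluster 4.

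Other classes had less Cyp24a1 than PTEC-like cells of the same library. Erythroid-like cells had 91.3 CPM (71.3 to 115), 21.7 CPM (16.3 to 28.3) and 10.9 CPM (6.85 to 16.5), with an interval in Aoah-/- replicate 2 that held the PTEC-like level, and they also held PTEC marker RNA at 22192 CPM, 41003 CPM and 31485 CPM. Fibroblast-like cells had 12.3 CPM (3.99 to 28.7), 30.6 CPM (22.1 to 41.2) and 3.65 CPM (2.13 to 5.85). Granulocyte-like cells had 20.8 CPM, 16.0 CPM and 4.12 CPM (2 UMIs), and B lymphocyte-like cells had 19.8 CPM and 10.2 CPM in the Aoah-/- libraries and no UMI in the WT library. Cyp24a1 was at 8.48 CPM, 10.9 CPM and 0.742 CPM (3 UMIs) in distal convoluted tubule-like cells and at 7.03 CPM, 4.83 CPM and 0.973 CPM (3 UMIs) in ascending limb-like cells. Each of these classes had its lowest level in the WT library. Not every class had such a gap. Intercalated cell-like cells had 5.30 CPM, 4.78 CPM and 4.55 CPM, and principal cell-like cells 12.6 CPM, 4.35 CPM and 3.36 CPM. Plasmacytoid dendritic-like cells had 4.63 CPM, 14.1 CPM and 7.84 CPM, with the WT library between the others. None of these classes counted as higher by the 1.5-fold rule. Within fibroblast cluster 34 the WT library was not lowest, at 13.9 CPM, 20.4 CPM and 19.5 CPM. Fibroblast cluster 32 had 200 CPM in Aoah-/- replicate 3, from 19 cells. As a measure of RNA carried over from PTECs, Cyp24a1 was set against the summed UMIs of the 11 PTEC markers within the classes named below. Fibroblast-like cells were not among them.

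Per 1000 PTEC marker UMIs there were 1.91, 1.17 and 0.320 Cyp24a1 UMIs in PTEC-like cells themselves. T lymphocyte-like cells had 2.62 (1.89 to 3.54), 1.32 (0.880 to 1.91) and 0.426 (0.156 to 0.928). Distal convoluted tubule-like cells had 1.67 (1.21 to 2.25), 2.09 (1.64 to 2.63) and 0.123 (0.0253 to 0.359), and ascending limb-like cells 2.38 (1.77 to 3.14), 1.06 (0.736 to 1.49) and 0.136 (0.0280 to 0.397). In these 3 classes the intervals held the ratio of PTEC-like cells of the same library, except in distal convoluted tubule-like cells of Aoah-/- replicate 3, which lay above it. Of the 6 other classes set against the markers, macrophage-like and endothelial-like cells held the ratio in every library. Granulocyte-like cells lay above it in both Aoah-/- libraries, at 3.102 (2.12 to 4.38) and 1.96 (1.31 to 2.84). Erythroid-like cells lay above it in Aoah-/- replicate 2, at 4.12 (3.21 to 5.19), and below it in Aoah-/- replicate 3, at 0.529 (0.397 to 0.690). B lymphocyte-like cells lay above it in Aoah-/- replicate 2, at 2.75 (2.23 to 3.34), and below it in the WT library, at 0 (0 to 0.126). Intercalated cell-like cells lay below it in Aoah-/- replicate 3, at 0.805 (0.550 to 1.14), and above it in the WT library, at 0.854 (0.522 to 1.32). Levels of Cyp24a1 outside PTEC-like cells are not read here as expression by those cells.

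Cyp27b1, the enzyme that makes calcitriol, was scarce. It was at 6.06 CPM (5.44 to 6.74), 5.16 CPM (4.55 to 5.81) and 2.57 CPM (2.22 to 2.96) in PTEC-like cells, from 344, 265 and 192 UMIs. Both Aoah-/- libraries lay above the WT library without overlap of intervals, and the log2 ratio was 1.13 (SD 0.17). Cyp24a1 and Cyp27b1 were the 2 of 7 members over the 1 CPM floor that counted as higher in PTEC-like cells, and none counted as lower, where 7.51% of all genes were higher and 1.31% lower. Cyp24a1 chose the group, so 1 of the 6 other members over the floor counted as higher.

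Within segments this difference was less uniform. In S1/S2-like cells Cyp27b1 was at 9.82 CPM (8.69 to 11.1), 8.11 CPM (6.96 to 9.39) and 6.54 CPM (5.49 to 7.74), with overlapping intervals between the WT library and Aoah-/- replicate 3, and it did not reach 1.5-fold in both libraries. S3-like cells had 2.20 CPM, 1.13 CPM and 0.538 CPM, from 32, 17 and 17 UMIs. By the 1.5-fold rule Cyp27b1 counted as higher there, at 4.10-fold and 2.10-fold, where 4.26% of genes were higher. The intervals of Aoah-/- replicate 3 and the WT library overlapped, and these levels are near the floor. B lymphocyte-like cells had 0.794 CPM, 0.566 CPM and 0 CPM of Cyp27b1, and T lymphocyte-like cells 1.30 CPM, 0.334 CPM and 0 CPM. The part of free RNA in the S3-like values was not tested. Injured cells had 8.27 CPM, 14.95 CPM and 8.98 CPM, with no common direction. Weighted to the WT library's mix of subclusters, Cyp27b1 in PTEC-like cells was at 5.31 CPM, 3.95 CPM and 2.57 CPM.

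The 2 S1/S2-like subclusters gave different values. Subcluster 4 had 18.6 CPM (16.0 to 21.7), 13.2 CPM (10.8 to 16.1) and 6.47 CPM (5.14 to 8.04), a log2 ratio of 1.30 (SD 0.35). Both Aoah-/- libraries were higher there, where 7.81% of genes were higher and 1.08% lower by the 1.5-fold rule. Subcluster 0 had 5.43 CPM (4.43 to 6.60), 5.38 CPM (4.25 to 6.73) and 6.66 CPM (5.03 to 8.64), with the WT library nominally highest and all intervals overlapping, in cells where 5.4% of genes were higher and 1.65% lower. The difference between the subclusters was not tested.

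In subcluster 4, Cyp27b1 was also higher in cells in which Cyp24a1 was detected. Cells there with a Cyp24a1 UMI after thinning had Cyp27b1 at 37.9 CPM (28.2 to 50.03), 25.3 CPM (16.6 to 36.8) and 18.3 CPM (9.12 to 32.7). Cells of that subcluster without one had 15.5 CPM (12.8 to 18.5), 11.3 CPM (8.85 to 14.1) and 5.88 CPM (4.58 to 7.42). The intervals did not overlap in any of the 3 libraries, and the WT library showed the same order as the Aoah-/- libraries. These intervals leave out the spread between cells, and single S1/S2-like cells held up to 21, 10 and 7 Cyp27b1 UMIs. The share of all genes that differ between such cells is not given here, so the order is a description. Median depth was alike, 8585.5 to 9048 UMIs in cells with and 8708 to 9063.5 UMIs in cells without a Cyp24a1 UMI.

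Subcluster 0 did not show this pattern. Its cells with a Cyp24a1 UMI had Cyp27b1 at 3.39 CPM, 4.16 CPM and 9.18 CPM, from 8, 4 and 2 UMIs, against 5.73 CPM, 5.47 CPM and 6.66 CPM in those without. The intervals overlapped in each library, from 1.46 to 6.68 CPM against 4.61 to 7.04 CPM in Aoah-/- replicate 2. Vdr was at 147 CPM, 146 CPM and 113 CPM in cells of subcluster 4 with a Cyp24a1 UMI and at 135 CPM, 135 CPM and 105 CPM in those without, with overlapping intervals in each library.

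Vdr, the receptor through which calcitriol induces Cyp24a1, was at 108 CPM (106 to 111), 93.2 CPM (90.5 to 95.8) and 84.3 CPM (82.2 to 86.4) in PTEC-like cells. The order of the libraries matched that of Cyp24a1, but the log2 ratio was 0.26 (SD 0.15), short of 1.5-fold in either Aoah-/- library. It was 0.27 in S1/S2-like and 0.15 in S3-like cells. In injured cells Vdr was at 80.1 CPM, 75.5 CPM and 78.4 CPM, with overlapping intervals.

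The Vdr difference was wider in single subclusters. Subcluster 0 had 95.8 CPM (91.4 to 100), 74.4 CPM (70.0 to 79.0) and 55.1 CPM (50.2 to 60.4), and subcluster 7, which no segment list named, had 122 CPM (112 to 133), 95.98 CPM (84.2 to 109) and 61.2 CPM (56.1 to 66.5). Subcluster 7 was past 1.5-fold in both Aoah-/- libraries and subcluster 0 was not. In subcluster 7, 9.54% of genes were higher and 1.27% lower by that rule.

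Across the 17 classes with at least 50 cells in every library, Vdr was highest in distal convoluted tubule-like cells, at 227 CPM, 205 CPM and 200 CPM. There the WT interval of 187 to 215 overlapped both Aoah-/- intervals. Principal cell-like, intercalated cell-like and PTEC-like cells followed, with means over the libraries of 126 CPM, 106 CPM and 95.3 CPM whose ranges overlapped from one class to the next. The leading class did not overlap with the second.

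Rxra, the partner with which VDR binds DNA, was nearly level across the libraries in PTEC-like cells, at 37.7 CPM (36.2 to 39.4), 37.9 CPM (36.2 to 39.6) and 35.3 CPM (34.01 to 36.7). Its log2 ratio was 0.10. It was at 38.7 CPM, 41.5 CPM and 38.5 CPM in S1/S2-like and 36.6 CPM, 33.3 CPM and 34.8 CPM in S3-like cells. Neither segment reached 1.5-fold in any library. By class Rxra was highest in urothelial-like cells (73.8 CPM, 70.3 CPM and 67.2 CPM), with no overlap with the endothelial-like cells in second place.

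**Figure D2:**
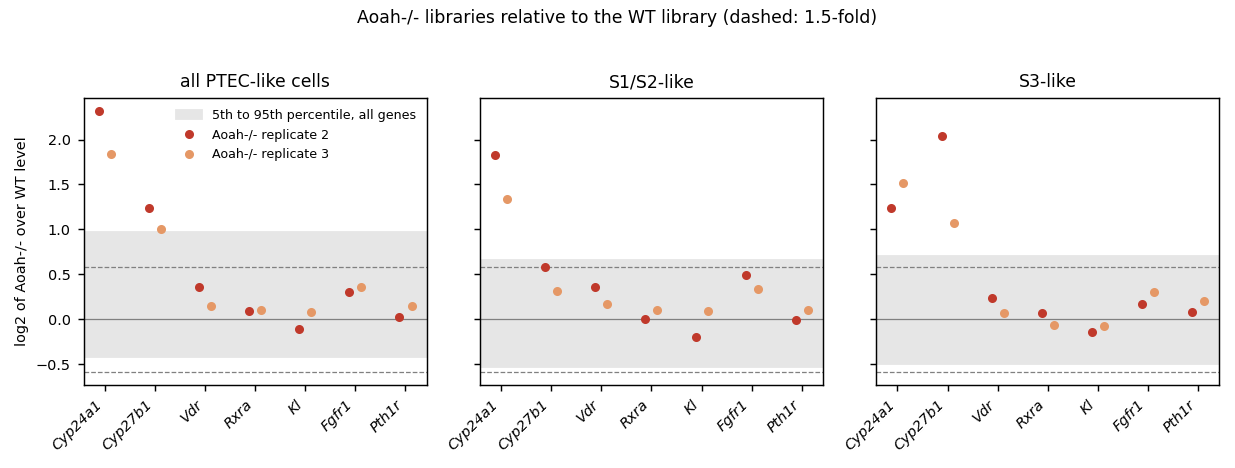
The log2 ratio of each Aoah-/- library to the WT library for the 7 members over 1 CPM, in all PTEC-like, S1/S2-like and S3-like cells. Grey bands span the 5th to 95th percentile of all genes for the mean of the Aoah-/- libraries, and dashed lines mark 1.5-fold. Cyp24a1 lies above the band in the 3 panels, and Vdr, Rxra, Kl, Fgfr1 and Pth1r lie inside it. Cyp27b1 lies above it in all PTEC-like and in S3-like cells, and inside it in S1/S2-like cells.

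Klotho, the FGF23 coreceptor, showed no common direction in PTEC-like cells. Kl was at 235 CPM (231 to 239), 268 CPM (264 to 273) and 253 CPM (250 to 257), with the WT library between the Aoah-/- libraries. The log2 ratio was -0.01 (SD 0.14), and it was -0.04 in S1/S2-like and -0.10 in S3-like cells. Injured cells had less of it, 118 CPM, 155 CPM and 93.1 CPM, than S1/S2-like cells with 256 CPM, 314 CPM and 294 CPM.

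Distal cells were the main site of Kl per UMI. Distal convoluted tubule-like cells had 859 CPM (833 to 885), 1253 CPM (1227 to 1280) and 1159 CPM (1126 to 1193), again with the WT library between the Aoah-/- libraries. Principal cell-like cells had 817 CPM, 859 CPM and 744 CPM, and their range overlapped with that of the distal convoluted tubule-like cells. Because PTEC-like cells were so many, they still held 56.7%, 44.2% and 65.4% of the Kl UMIs.

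Intercalated cell-like cells, which secrete acid or base, differed. Kl was at 113 CPM (105 to 122), 179 CPM (169 to 189) and 285 CPM (269 to 301), lower in both Aoah-/- libraries, with a log2 ratio of -0.97 (SD 0.47). The Aoah-/- libraries differed from each other too. By the 1.5-fold rule 2.84% of genes in this class were lower. Cluster 8, led by Aqp6 and Slc4a1 (acid-secreting, type A), had 155 CPM, 190 CPM and 332 CPM, and cluster 25, led by Slc26a4 (base-secreting), had 85.8 CPM, 172 CPM and 220 CPM. Cluster 8 counted as lower, whereas cluster 25 did not, since its Aoah-/- replicate 3 was at 0.783 of the WT level. Cluster 25, with less Kl than cluster 8 in each library, held 215 of 397, 458 of 740 and 112 of 284 cells of the class, a larger part in the Aoah-/- libraries. The class had 397, 740 and 284 cells with median depths of 15061, 4222.5 and 14696 UMIs, so Aoah-/- replicate 3 was sampled at lower depth.

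Fgfr1, a receptor through which FGF23 signals with klotho, was low in PTEC-like cells, at 16.3 CPM (15.3 to 17.4), 16.8 CPM (15.7 to 18.0) and 13.2 CPM (12.4 to 14.0). Its log2 ratio of 0.33 was short of 1.5-fold. Subcluster 4 had 24.6 CPM (21.5 to 28.0), 20.04 CPM (17.0 to 23.5) and 13.2 CPM (11.2 to 15.3), past 1.5-fold in both Aoah-/- libraries. The ratios to the WT library were 1.87 and 1.52. In that subcluster 7.81% of genes were higher and 1.08% lower by the rule. The log2 ratio of Fgfr1 there, 0.76, lay within the 5th to 95th percentile of all genes (-0.36 to 0.99).

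In fibroblast-like cells Fgfr1 was at 78.6 CPM (53.7 to 111), 46.2 CPM (35.7 to 58.9) and 194 CPM (182 to 207), a log2 ratio of -1.64 (SD 0.54). The WT library was the highest, in a class where 13.9% of genes were lower and 16.1% higher by the 1.5-fold rule. Different clusters held this class in the 2 groups, so its cells are not alike. Cluster 32, led by Dcn and Pi16, had 11, 19 and 353 cells, cluster 34, led by Mgp and Rgs5, had 74, 276 and 33 cells, and cluster 38 had 1, 0 and 150 cells. Within cluster 34 Fgfr1 was at 52.7 CPM (31.7 to 82.3), 41.5 CPM (31.2 to 54.0) and 97.7 CPM (59.7 to 151), lower in both Aoah-/- libraries but with an interval of replicate 2 that overlapped the WT interval. In that cluster 24.7% of genes were higher and 17.6% lower by the rule. Over the whole class, 4 of the 8 members counted as higher (Cyp24a1, Vdr, Pth1r and Casr, the last from 7 UMIs) and 1 as lower, beside the class shares above. Vdr was at 34.4 CPM, 35.5 CPM and 15.2 CPM and Pth1r at 113 CPM, 188 CPM and 46.6 CPM. Within cluster 34 neither counted as higher, with Vdr at 38.9 CPM, 33.9 CPM and 39.1 CPM and Pth1r at 128 CPM, 188 CPM and 161 CPM.

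A cluster left unnamed had more Fgfr1 than the fibroblast-like cells, at 410 CPM (397 to 423), 239 CPM (178 to 314) and 272 CPM (234 to 316). Its leading genes were Saa3, Fn1, Slpi, Prg4, Alox15 and Lyz2. The macrophage list scored highest in this cluster, at a mean log2 of 5.52, but no marker of that list was among its leading genes. It had 1407, 50 and 78 cells, so 1 library supplied nearly all of it. Of all Fgfr1 UMIs in kept cells, PTEC-like cells held 15.4%, 35.3% and 31.0%.

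Pth1r, the parathyroid hormone receptor, was at 286 CPM (282 to 291), 313 CPM (308 to 318) and 282 CPM (278 to 286) in PTEC-like cells. The log2 ratio was 0.09 (SD 0.09), with 1 of the Aoah-/- libraries overlapping the WT library. It was higher in S3-like cells, at 327 CPM, 358 CPM and 311 CPM, than in S1/S2-like cells, at 280 CPM, 301 CPM and 281 CPM, in each library, the reverse of Cyp24a1. The 2 S1/S2-like subclusters differed, with 295 CPM, 320 CPM and 307 CPM in subcluster 0 and 250 CPM, 264 CPM and 263 CPM in subcluster 4. In the WT library subcluster 0 was thus close to the S3-like level. Injured cells had 208 CPM, 226 CPM and 158 CPM. Ascending limb-like cells had 204 CPM, 301 CPM and 311 CPM, and their range overlapped that of PTEC-like cells.

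Casr, the calcium-sensing receptor, was almost absent from PTEC-like cells, with 9, 9 and 8 UMIs in all. It was highest in ascending limb-like cells, where calcium is reabsorbed between cells, at 51.2 CPM (46.1 to 56.8), 48.0 CPM (43.0 to 53.4) and 61.6 CPM (53.2 to 71.0). Both Aoah-/- libraries lay below the WT library there, by a log2 ratio of -0.31 (SD 0.07), short of 1.5-fold, with intervals that overlapped the WT interval. By that rule 9.28% of genes in this class were higher and 5.57% lower.

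Casr was higher in the Aoah-/- libraries in intercalated cell-like cells, at 17.9 CPM (14.7 to 21.6), 17.5 CPM (14.4 to 20.9) and 9.10 CPM (6.50 to 12.4). In this class 6.13% of genes were higher by the 1.5-fold rule. Most of its UMIs were in cluster 25, at 26.6 CPM, 24.1 CPM and 15.2 CPM, while cluster 8 had 4.61 CPM, 6.97 CPM and 4.70 CPM. Within cluster 25, the larger part of the class in the Aoah-/- libraries, the ratio to the WT library was 1.75 and 1.59, with intervals that overlapped the WT interval.

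**Figure D3:**
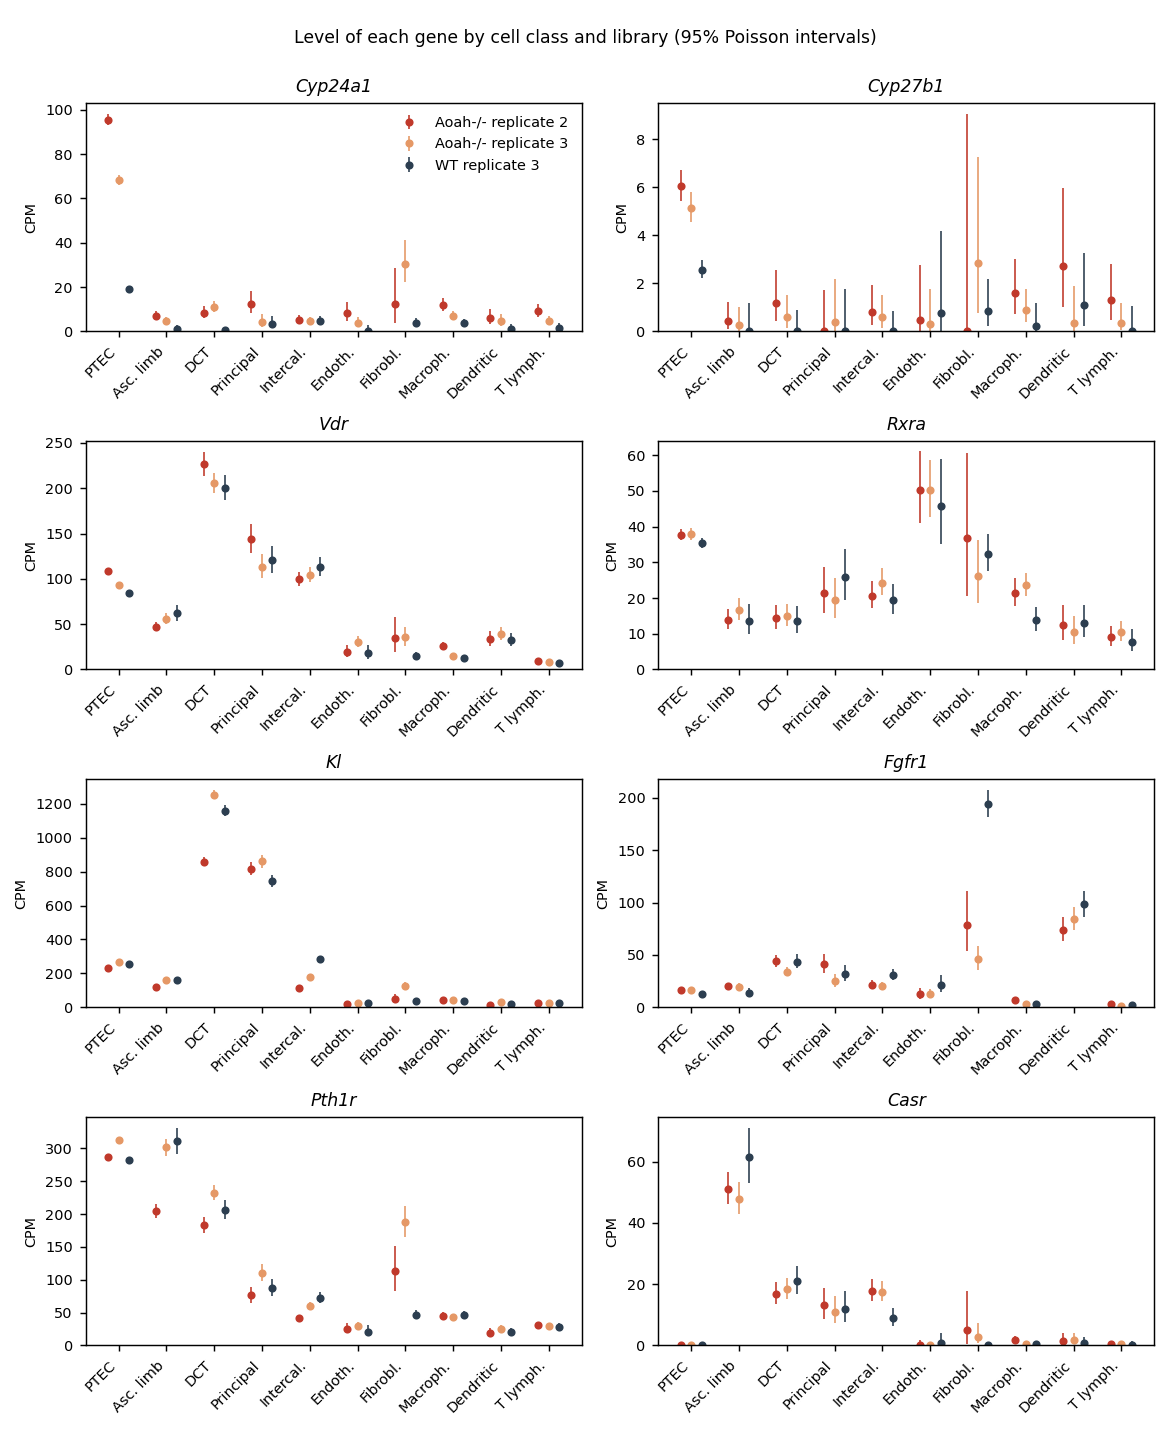
Level of each of the 8 genes in 10 cell classes (UMIs per 1000000, CPM, linear axes from 0), 1 point per library with its 95% Poisson interval. Cyp24a1 separates the libraries in PTEC-like cells, Kl in intercalated cell-like cells and Fgfr1 in fibroblast-like cells, while Pth1r in PTEC-like cells spans 282 to 313 CPM. These are examples, and other points also differ past 1.5-fold, such as Vdr and Pth1r in fibroblast-like and Rxra in macrophage-like cells.

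The rest of the pathway was read from a list of 36 other genes of vitamin D uptake, response, phosphate and calcium handling. In PTEC-like cells 25 of them were over 1 CPM, 3 counted as higher and 0 as lower, against the 7.51% and 1.31% of all genes given above. The list's median log2 ratio was 0.10, beside 0.01 over all genes. The 3 genes were Gc, the vitamin D-binding protein (28.7 CPM, 31.6 CPM and 14.0 CPM), Slc20a1, a sodium-phosphate cotransporter (27.8 CPM, 31.3 CPM and 18.5 CPM), and Cldn19, a tight-junction protein of the ascending limb (1.37 CPM, 1.42 CPM and 0.775 CPM). Cldn19 lay near the floor and was far higher in ascending limb-like cells, which made up 4.84%, 4.79% and 2.82% of kept cells. The part of RNA from those cells in its PTEC-like value was not tested.

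The endocytic receptor Lrp2 (megalin), which carries most of this uptake, was at 1320 CPM, 1312 CPM and 1325 CPM. Cyp27a1, a hydroxylase earlier in the pathway, was at 16.9 CPM, 20.4 CPM and 16.8 CPM. The coregulator Ncor1, a corepressor, was at 198 CPM, 202 CPM and 215 CPM.

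The main phosphate transporter of the proximal tubule, Slc34a1, was at 3447 CPM, 3809 CPM and 3581 CPM, with the WT library between the others. Gnas, which couples PTH1R to cyclic AMP, was at 418 CPM, 405 CPM and 404 CPM. Of the other receptors and enzymes of FGF23, Galnt3, which glycosylates it, was at 66.4 CPM, 72.6 CPM and 64.9 CPM. The calcium pump Atp2b1 was at 79.4 CPM, 83.5 CPM and 67.3 CPM, and Gna11, which couples the calcium-sensing receptor, at 42.5 CPM, 42.3 CPM and 46.9 CPM.

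In distal convoluted tubule-like cells, where calcitriol acts on calcium transport, 28 of the 36 genes were over the floor, 4 counted as higher and 0 as lower, where 6.99% of all genes were higher and 2.57% lower. The calcium-binding targets did not separate the groups. S100g (calbindin-D9k) was at 6418 CPM, 7273 CPM and 6470 CPM and Calb1 (calbindin-D28k) at 2413 CPM, 3073 CPM and 2355 CPM, with the calcium channel Trpv5 at 21.5 CPM, 23.2 CPM and 25.2 CPM.

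The 4 that counted as higher were Gc (2.17 CPM, 2.24 CPM and 0.742 CPM), Fgfr4 (4.14 CPM, 2.99 CPM and 1.98 CPM), the phosphate transporter Slc34a3 (2.76 CPM, 5.23 CPM and 1.73 CPM) and Cldn19 (10.5 CPM, 9.87 CPM and 0.990 CPM). All 4 were at low levels. PTEC-like cells of the same library had more Gc, Fgfr4 and Slc34a3 than these cells (Fgfr4 at 14.7 CPM, 15.9 CPM and 13.8 CPM, Slc34a3 at 32.7 CPM, 36.5 CPM and 24.9 CPM). Fgfr4 and Slc34a3 did not count as higher against the WT library in PTEC-like cells. Cldn19 was at 195 CPM, 196 CPM and 226 CPM in ascending limb-like cells. Distal convoluted tubule-like cells also held PTEC marker RNA at 5072 CPM, 5218 CPM and 6040 CPM. The part of RNA from those other cells in the 4 values was not tested, and they are not read here as expression by distal convoluted tubule-like cells. In principal cell-like cells Calb1 was at 2355 CPM, 2159 CPM and 1263 CPM, past 1.5-fold in both Aoah-/- libraries, in a class where 6.6% of genes were higher and 5.89% lower.

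**Figure D4:**
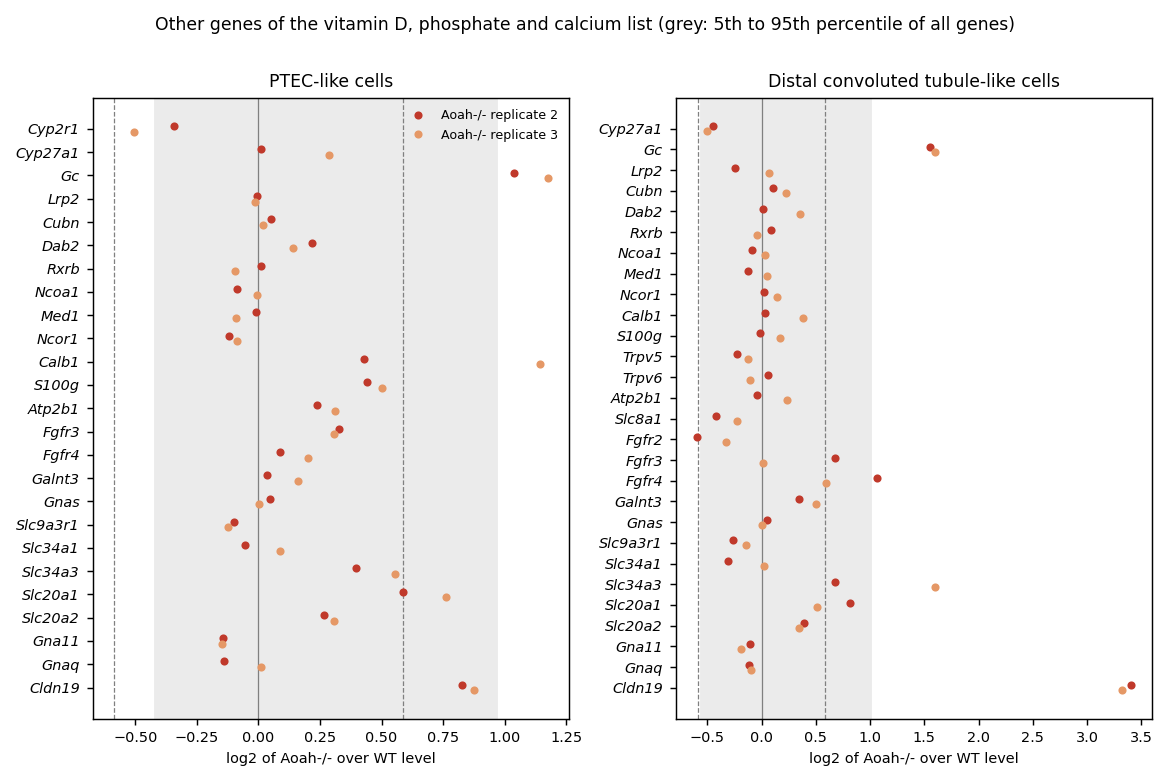
The log2 ratio of each Aoah-/- library to the WT library for the genes of the 36-gene list over 1 CPM, in PTEC-like (left) and distal convoluted tubule-like (right) cells. Grey bands span the 5th to 95th percentile of all genes and dashed lines mark 1.5-fold; 3 genes on the left and 4 on the right are past it in both libraries, all of them higher.

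The genes whose levels ran most like each member were taken over 51 points, 17 classes in each of 3 libraries, as Pearson correlations of log2(CPM + 1) among 10931 genes. The points share libraries and free RNA, so these are descriptions. Cyp24a1 ran most like Cyp2d26 (r = 0.85), Pck1 (0.85), which encodes the rate-limiting enzyme of gluconeogenesis, and Slc6a19 (0.84), a neutral amino acid transporter. Vdr ran most like Oxct1 (0.89), Sdhc (0.89) and Ush1c (0.88). Kl ran most like Kcnj16 (0.93), a potassium channel, and Pth1r most like Osbpl6 (0.95). Casr ran most like Tmem72 (0.92), Rxra most like Pttg1ip (0.91) and Fgfr1 most like Mras (0.82). Cyp27b1, with a mean of 0.962 CPM, reached 0.68 at most, with Gpr137b.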

How the data were processed

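The authors digested FA-treated kidneys with collagenase and made libraries on the 10x Chromium 3′ system, which counts transcript ends with UMIs, so levels are not compared between genes. The submitters' processing notes name Cell Ranger 3.1.0, STAR, the mm10 genome and Seurat 4.2.0, whereas the file headers name Cell Ranger 6.1.2. The deposited values are raw UMI counts per gene and called barcode, which were used unaltered.

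A barcode was kept if it had 200 or more genes and no more than 50% of its UMIs from mitochondrial genes. Barcodes reached down to 500, 1672 and 500 UMIs, so cell calling differed between libraries. Counts were scaled to 10000 per cell, log-transformed and clustered together with scanpy 1.11.5 (2000 variable genes without the 8 members, the pathway list, Aoah, Cd74 and MHC class II genes, 50 principal components, 15 neighbours, Leiden resolution 1, no correction between libraries). A cluster was called X-like where at least 3 markers stood 2-fold above the median cluster. The 5 best also needed a mean log2 of at least 2, with a marker among the cluster's 10 leading genes. A second route to PTEC-like, for clusters with an injury gene leading, asked for a mean log2 of at least 1. It also asked for 3 PTEC and 3 injury markers at 2-fold. Clusters 2 (548 cells, led by Ccl2, Vcam1 and C3) and 14 (21 cells) entered by it. Clusters of another class with a high PTEC score beside their own were left unnamed. PTEC-like cells were clustered again (30 components, resolution 0.5), and a subcluster was named S1/S2 or S3 where the mean relative level of that marker list exceeded the other by 0.2.

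Levels are the sum of a gene's UMIs over the cells of a class in a library, divided by all their UMIs and multiplied by 1000000 (CPM). Their 95% intervals are Poisson, and those of cell shares Clopper-Pearson (scipy 1.17.1). With 1 WT library no test between groups was made. The 1.5-fold rule used genes with a mean of at least 1 CPM. It was also run on simulated Poisson counts with planted changes. The simulation held no spread between mice, so it cannot show how the rule fares with such spread. Doublets were kept. Scrublet called 2.55%, 0% and 1.10% of cells, so its automatic threshold did not work in 1 library, and an alternative left out the cells with the highest scores. Other alternatives changed the cell filter, clustering, denominator and thinning depth, or left out an Aoah-/- library. The members and gene lists were chosen with earlier results of these data known. The genes named are the 8 members, their 3 most alike genes or the first of them, and the genes of the 36-gene list that were highest in their role in PTEC-like or distal convoluted tubule-like cells or past 1.5-fold in both Aoah-/- libraries.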

Additional observations from a re-analysis of the deposited data

Results flagged for a closer look

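Cyp24a1 was also higher in barcodes that the cell filter left out, at 28.2 CPM, 18.1 CPM and 4.84 CPM in Aoah-/- replicate 2, Aoah-/- replicate 3 and the WT library, with intervals that did not overlap between the groups. These barcodes enter no comparison of the report.

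The 3 clusters below were left unnamed by the marker rule and carried more Cyp24a1 in both Aoah-/- libraries than in the WT library. Cluster 4, led by Fabp4, S100a9 and Umod, which belong to different cell types, had 71.6 CPM, 31.0 CPM and 5.43 CPM, and 2364 of its 2676 cells came from Aoah-/- replicate 3. Cluster 17, led by the T cell genes Ms4a4b, Il7r and Cd3d, had 64.1 CPM, 44.7 CPM and 0.917 CPM, the last from 1 UMI. Cluster 35, led by the cell-cycle genes Mki67 and Top2a, had 67.5 CPM, 26.1 CPM and 6.20 CPM. PTEC markers in these 3 clusters stood at mean log2 scores of 2.68, 2.44 and 1.61 over the median cluster, and the part of PTEC RNA in these values was not tested.

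Kl is listed because its ratio had opposite signs in 2 classes. The log2 ratio of the Aoah-/- libraries to the WT library was -0.97 in intercalated cell-like cells and 1.02 in natural killer-like cells. The second rests on 14, 19 and 9 UMIs, at 26.6 CPM (14.5 to 44.6), 37.7 CPM (22.7 to 58.8) and 15.9 CPM (7.25 to 30.1), with overlapping intervals. T lymphocyte-like cells, which should lack the gene, had 27.1 CPM, 28.5 CPM and 23.5 CPM. The value in natural killer-like cells is therefore not read as expression or as a change of direction, and the difference between the classes was not tested.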

How the results depend on the processing

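With 1 WT mouse, none of these values has a check between WT mice. No paired analysis was possible, because there was 1 WT library and the labels do not say that any mice were paired.

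The log2 ratio of Cyp24a1 in PTEC-like cells (2.10) was between 1.75 and 2.22 under the settings that kept both Aoah-/- libraries. It was between 1.84 and 2.32 when 1 Aoah-/- library was left out. Of these 14 settings together, 12 stayed within the SD between the Aoah-/- libraries. The ratio moved by more than that SD, to 1.75, with at most 20% mitochondrial UMIs. It also moved to 1.75 with the PTEC subcluster mix of the WT library, a setting chosen after seeing the data. The log2 ratio of the thinned share of PTEC-like cells with a Cyp24a1 UMI (2.04) was 2.32 at 500 UMIs, 1.74 with at most 20% mitochondrial UMIs and 1.71 at Leiden resolution 2, with 1.85 to 2.20 when 1 Aoah-/- library was left out. By segment, subclusters at resolution 1 gave 2.69 in S3-like and 2.77 in injured cells, and a minimum of 500 genes gave 3.22 in injured cells and no S3-like cells. Leaving out 1 Aoah-/- library gave 1.33 to 1.83 in S1/S2-like, 1.24 to 1.52 in S3-like and 2.02 to 2.499 in injured cells. The causes of these shifts were not tested.

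The count of members higher in PTEC-like cells was 2, and of members lower 0, under each of these settings. Cyp24a1, which chose the group, is 1 of the 2, and the share of all genes that counted as higher was not computed under the other settings. Of the pathway list, 3 genes counted as higher, 1 at a fold of 2, 2 at a floor of 5 CPM and 3 to 4 when 1 Aoah-/- library was left out, with 0 lower throughout. Cyp27b1 ranged from 0.85 to 1.42. Fgfr1 in fibroblast-like cells ranged from -2.002 to -1.11 with both Aoah-/- libraries, and from -2.07 to -1.31 when 1 was left out. Leiden resolution 2 and the common UMI minimum gave too few of these cells. No direction was reversed among the results recomputed that counted as higher or lower, which were Cyp24a1 (over all PTEC-like cells, by segment and as a share of cells) and Cyp27b1 in PTEC-like cells and Fgfr1 in fibroblast-like cells. Values in intercalated cell-like and principal cell-like cells and in single subclusters were not recomputed.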
